A study of Mus musculus with 6 samples.

Results

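Transcripts of 7 genes whose proteins read CpG sites in DNA, or bind the TET dioxygenases that oxidize methylated CpG, were measured in splenic naive B cells with and without TET2. The genes were chosen by name, as methyl-CpG binding proteins (Mbd1, Mbd2, Mbd3 and Mbd4), CXXC zinc finger proteins (Cxxc1 and Cxxc5) and the glycosyltransferase Ogt. All 7 of 7 were found among 41053 gene names in the count table and all 7 passed the filter on low counts, which kept 13604 genes. The cells came from mouse spleens of the C57BL/6 strain, in 3 libraries whose genotype is given as TET2 Knock-Out and 3 given as TET2 Wild-Type, with numbers 2, 3 and 4 in each. The labels give no allele, deleted exon, Cre driver, age, sex or treatment, and whether a library held 1 mouse or a pool is not stated.

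Methylation of the cytosine in a CpG is read by proteins with a methyl-CpG binding domain, while CXXC domains mostly hold on to CpG that carries no methyl group. MBD2 and MBD3 are alternative subunits of NuRD, a nucleosome remodelling and histone deacetylase complex, and of this pair MBD2 is the one with strong affinity for methylated DNA. TET enzymes convert 5-methylcytosine to 5-hydroxymethylcytosine and further oxidized forms. TET2 has no CXXC domain of its own, and CXXC5 and the related CXXC4 are known to bind it. OGT, which attaches N-acetylglucosamine to serines and threonines of nuclear and cytosolic proteins, binds TET2 and TET3.

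None of the 7 genes passed the test between genotypes, and their levels were close. On the CPM scale (the count of a gene scaled to a common library total after normalization of library composition), the knockout level was between 93.7% of wild type, for Cxxc1, and 107%, for Mbd3. Of the 7 genes edgeR called 0, DESeq2 called 0 and limma-voom called 0 (adjusted p under 0.05), and 0 had an unadjusted p under 0.05. Over the whole table, the share of genes past this threshold was 0.404% in edgeR, 2.57% in DESeq2 and 0.331% in limma-voom, and an unadjusted p under 0.05 was reached by 13.4%. The 95% intervals of the 7 log2 differences ran from −0.32 to 0.27 at the widest, both ends belonging to Ogt. The 1 gene of the set that differed between libraries by more than the threshold was Ogt, which was lower in the libraries numbered 4 of both genotypes.

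The libraries held 35101788 to 45401781 counts, and the least covered value among the 7 genes was 2125 counts, for Mbd4. The 3 knockout libraries contained 50 to 64.8 CPM of Tet2 and the 3 wild-type libraries 56.8 to 83.3 CPM, so the ranges overlapped (log2 difference −0.30, SE 0.14, edgeR adjusted p = 0.408). Counts cover all exons and the deleted part is not given, so this level does not check the labels. The libraries differed in sex-linked transcripts: 4 Y-linked genes summed to 101 to 188 CPM in knockout against 0.0226 to 0.227 CPM in wild type. Y-linked RNA thus went with genotype in every library. In each comparison of knockout with wild type, genotype and sex of the mice therefore cannot be told apart. The libraries numbered 4 stood apart on the second principal component (31.5% of the variance), and 6 heat-shock genes summed to 968 to 989 CPM there against 354 to 465 CPM in the other 4 libraries. Of 9 B cell markers 8 were in the table and all 8 were tested, at a sum of 17140 to 21523 CPM. The 5 T cell markers summed to at most 1.07 CPM and the 3 NK cell markers to at most 0.681 CPM. The 6 myeloid markers summed to 20.1 to 29.4 CPM in knockout against 22.2 to 25.3 CPM in wild type. Erythroid markers (5) summed to 13.8 to 17.1 CPM in the libraries numbered 4 and 6.84 to 11.6 CPM in the others. Plasma cell markers (3) summed to 20.6 to 43.8 CPM in knockout and 17.4 to 23.3 CPM in the wild-type libraries. The higher sum came from Jchain alone (listed as Igj), at 21.8 ± 10.9 CPM in knockout against 8.73 ± 4.26 CPM in wild type. Its edgeR adjusted p was 0.325. Sdc1 and Prdm1 went the other way, with log2 differences of −0.12 and −0.21. In bulk RNA, fewer cells of a type and less RNA per cell cannot be told apart.

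Promoter windows from RefSeq (GRCm38.p6, 250 bases before to 50 after the start) matched 3 of the 7 genes by symbol. Those of Mbd3 (chr10:80399482-80399781, minus strand), Mbd4 (chr6:115853292-115853591, minus strand) and Ogt (chrX:101639801-101640100, plus strand) are printed 5′ to 3′ to show the spacing of these sites, with every CG in capitals.
Mbd3: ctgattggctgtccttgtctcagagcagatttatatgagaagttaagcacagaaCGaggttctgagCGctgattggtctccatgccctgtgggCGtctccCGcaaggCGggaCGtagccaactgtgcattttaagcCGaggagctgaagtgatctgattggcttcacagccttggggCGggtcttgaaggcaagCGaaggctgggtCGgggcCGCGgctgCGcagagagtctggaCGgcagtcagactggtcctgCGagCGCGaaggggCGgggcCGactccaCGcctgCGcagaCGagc
Mbd4: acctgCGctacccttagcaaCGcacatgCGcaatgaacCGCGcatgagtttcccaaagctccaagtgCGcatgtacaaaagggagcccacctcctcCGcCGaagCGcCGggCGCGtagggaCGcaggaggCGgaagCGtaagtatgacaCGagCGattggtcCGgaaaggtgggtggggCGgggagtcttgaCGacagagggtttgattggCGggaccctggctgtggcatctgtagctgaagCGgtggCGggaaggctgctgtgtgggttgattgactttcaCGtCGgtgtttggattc
Ogt: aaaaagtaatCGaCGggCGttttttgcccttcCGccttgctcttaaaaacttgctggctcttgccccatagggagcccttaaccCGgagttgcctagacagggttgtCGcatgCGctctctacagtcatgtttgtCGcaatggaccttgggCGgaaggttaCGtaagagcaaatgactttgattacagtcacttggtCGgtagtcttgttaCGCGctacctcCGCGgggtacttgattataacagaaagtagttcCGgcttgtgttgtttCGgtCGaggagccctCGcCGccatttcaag
The motif CG reads the same on both strands. It occurred 22 times in the window of Mbd3, 25 times in that of Mbd4 and 20 times in that of Ogt, and 14 times in a window for another start of Ogt that shares bases with the one shown. Over 32851 promoter windows the median was 7 and 94.6% held at least 1. A count at or below those of Mbd3, Mbd4 and Ogt was found in 78.5%, 83.1% and 75.2% of windows. Methylation was not measured here, so the letters say nothing of the state of these sites in the B cells.

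Levels were compared between genes per kilobase of summed exon length. Ogt was highest with a mean of 75.6 CPM per kilobase over the 6 libraries (64.1 to 85.7). Cxxc1 followed at 57.5 (54.2 to 63.9), Cxxc5 at 50 (48.3 to 52.9), Mbd3 at 45.1 (41.9 to 48.3) and Mbd2 at 41.6 (39.1 to 43.1). Mbd1 was lower at 23.6 (22.6 to 24.6), and Mbd4 was lowest at 11.4 CPM per kilobase (10.6 to 12.0). The ranges of Mbd3 and Mbd2 overlapped, although Mbd3 was above Mbd2 in 6 of 6 libraries, and those of Cxxc5 and Mbd3 met at 48.3. Neighbours in the rest of the order did not overlap, though the lowest Ogt value, 64.1, was just above the highest Cxxc1 value, 63.9. All members were well expressed: their level per kilobase exceeded that of 61.9% of tested genes for Mbd4, and of 80.0% to 95.1% for the other members. Tet2 itself was at 7.06 CPM per kilobase, below all of them. The lengths sum every annotated exon, so a gene with unused exons is placed too low in this order.

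**Figure D1:**
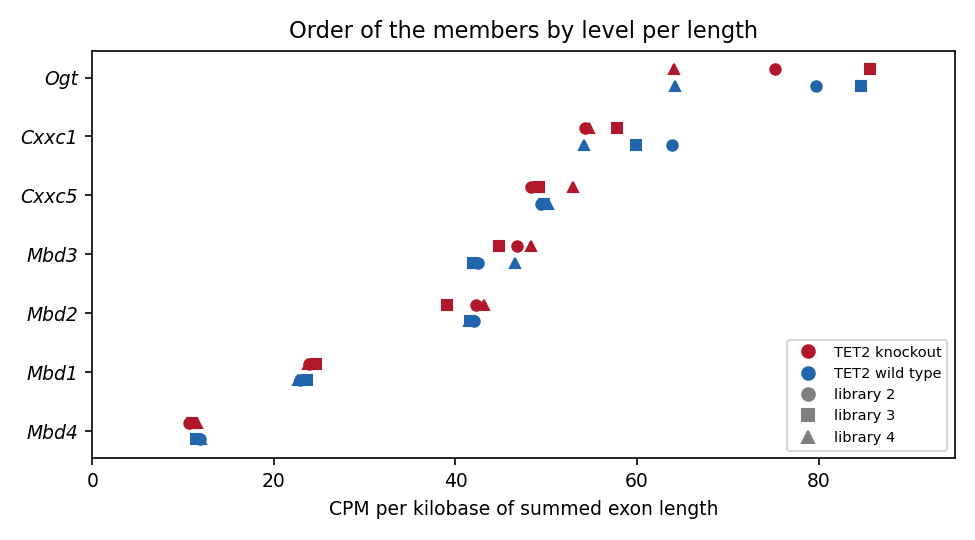
Level of the 7 genes in CPM per kilobase of summed exon length (horizontal axis), with 1 point per library, coloured by genotype and shaped by library number. Ogt lies highest (64.1 to 85.7) with both libraries numbered 4 at its lower end, and Mbd4 lowest (10.6 to 12.0).

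Among the methyl-CpG readers, Mbd2, which recruits NuRD to methylated DNA, had the most transcripts per library. In knockout libraries numbered 2, 3 and 4 its level was 136, 126 and 139 CPM, against 135, 134 and 133 CPM in the wild-type ones. The wild-type values lay within the knockout range. The log2 difference was −0.01 (SE 0.07, 95% interval −0.16 to 0.14, edgeR adjusted p = 0.977), so that a fold change between 0.898 and 1.10 was inside the interval. The gene lies on chromosome 18, 70568189 to 70626131 (GRCm38, plus strand).

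Mbd3, a core NuRD subunit (chromosome 10, 80392539 to 80399550, minus strand), had a level of 92.9, 89.0 and 96.0 CPM in the knockout libraries, in the order of their numbers. In wild type it was at 84.5, 83.3 and 92.5 CPM. Wild-type library 4 reached into the knockout range, so the genotypes overlapped. The log2 difference was 0.09 (SE 0.07, 95% interval −0.07 to 0.26, edgeR adjusted p = 0.602; exact two-sided permutation p = 0.2, where 3 against 3 libraries allow no p below 0.1). The ratio of Mbd2 to Mbd3 per kilobase was between 0.873 and 0.993 in the 6 libraries, with means of 0.890 in knockout and 0.957 in wild type.

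Mbd1, a transcriptional repressor that carries CXXC domains beside its methyl-CpG binding domain, was on chromosome 18 (74268272 to 74282685, plus strand). Its level was 64.1, 66.3 and 63.7 CPM in the knockout libraries (numbers 2, 3 and 4), against 61.7, 63.5 and 60.9 CPM in wild type. All knockout libraries were above all wild-type libraries, by as little as 63.7 against 63.5 CPM. The log2 difference was 0.06 (SE 0.07, 95% interval −0.09 to 0.21, edgeR adjusted p = 0.723). The exact permutation test gave the smallest p the design allows, 0.1. This was 1 of 7 genes (14.3%) whose genotypes did not overlap, beside 18.5% of all tested genes, so the share among the members was not above the background.

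Mbd4 encodes a DNA glycosylase that removes thymine or uracil opposite guanine at CpG sites, the products of deaminated methylcytosine and cytosine. It lies on chromosome 6 (115840697 to 115853371, minus strand). Knockout libraries 2, 3 and 4 had 53.7, 55.7 and 58.1 CPM, and wild type 60.0, 57.6 and 60.7 CPM. Knockout library 4 lay above wild-type library 3, and the other libraries were ordered by genotype. The log2 difference was −0.09 (SE 0.07, 95% interval −0.25 to 0.07, edgeR adjusted p = 0.613).

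Of the CXXC proteins, CXXC1 (also called CFP1) brings the SET1 complexes, which methylate histone H3 at lysine 4, to unmethylated CpG. Its gene is on chromosome 18 (74216131 to 74221491, plus strand), the same chromosome as Mbd1, Mbd2 and Cxxc5. Levels were 142, 151 and 143 CPM in the knockout libraries (numbers 2, 3 and 4), against 167, 157 and 142 CPM in wild type. Wild-type libraries 2 and 3 were highest and wild-type library 4 was among the lowest, so that the genotypes overlapped. The log2 difference was −0.09 (SE 0.08, 95% interval −0.27 to 0.08, edgeR adjusted p = 0.622). With libraries 2 and 3 alone it was −0.14 and did not pass either (edgeR adjusted p = 0.0931, unadjusted p = 0.0287), in a fit that called 24% of all genes and 0 of the 7 members.

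Cxxc5, on chromosome 18 (35829818 to 35861687, plus strand), encodes the CXXC protein known to bind TET2 and to lower its amount. The knockout libraries had 110, 112 and 120 CPM, in the order of their numbers, and the wild-type libraries 112, 113 and 114 CPM. Knockout library 4 was the highest, and the wild-type libraries lay inside the knockout range. The log2 difference was 0.01 (SE 0.07, 95% interval −0.14 to 0.16, edgeR adjusted p = 0.970). Its relative Cxxc4, also known as IDAX, had 1 count in the 6 libraries together, where 3 counts in a library would be 0.0679 to 0.0857 CPM, so Cxxc5 was the detected one of this pair.

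Ogt lies on the X chromosome (101640060 to 101684351, plus strand), on the same chromosome as Xist at 103460375 to 103483217. It was the most abundant and the most variable of the 7, with 605, 689 and 515 CPM in the knockout libraries (numbers 2, 3 and 4), against 642, 681 and 516 CPM in wild type. The genotypes overlapped almost completely, and in each of them library 3 was the highest and library 4 the lowest. The log2 difference between genotypes was −0.02 (SE 0.13, 95% interval −0.32 to 0.27, edgeR adjusted p = 0.959). Xist was at 847 ± 42.5 CPM in knockout against 1489 ± 47.1 CPM in wild type (SD, n = 3 each) and fell (log2 −0.81, edgeR adjusted p = 0.00251). Sex-linked RNA thus differed between the genotypes. Every knockout library held both Xist (802 to 887 CPM) and Y-linked RNA (101 to 188 CPM). Whether these libraries mixed RNA of male and female mice was not tested. Among 4 X-linked genes known to escape inactivation in mice, 0 were called, all 4 had a negative log2 difference (median −0.19), and Kdm6a was at 128 ± 1.96 CPM in knockout against 153 ± 2.22 CPM in wild type (edgeR adjusted p = 0.155). The interval of Ogt, −0.32 to 0.27, includes the median of these 4 genes, and their part in the comparison of Ogt was not tested. Over 437 tested X-linked genes the median log2 difference was 0.02, with 1 called higher and 2 lower.

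**Figure D2:**
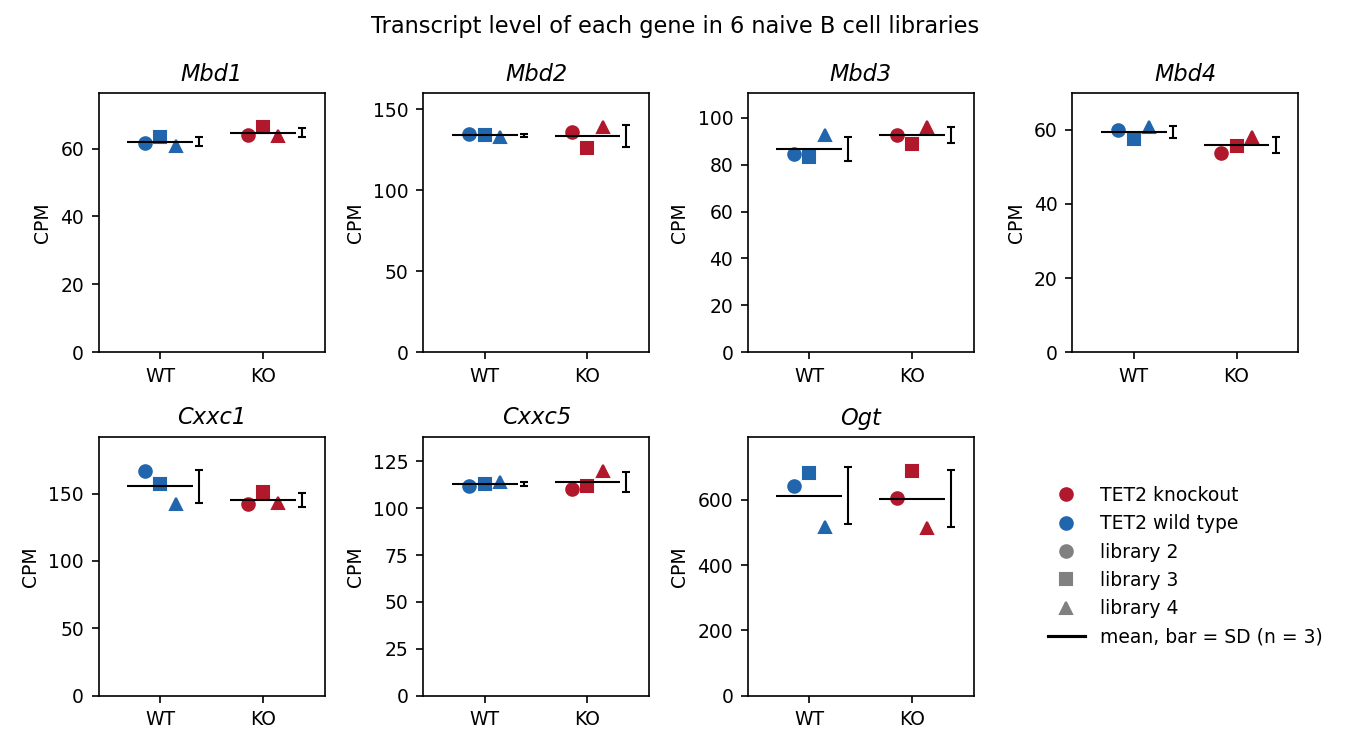
Level of each gene in CPM (vertical axes, starting at 0) in the 3 wild-type and 3 knockout libraries, with symbols for library number, a line for the mean and a bar for the SD. The genotypes overlap except for Mbd1, and both Ogt points of libraries numbered 4, 515 and 516 CPM, lie below the other 4.

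Across libraries of 1 genotype, 6 of the 7 genes varied less than most tested genes. Counting noise on the log2 scale is larger at low counts, and the members were not compared with genes of like level. The pooled SD of log2 CPM within genotypes was 0.0306 for Mbd1, smaller than in all but 1.10% of tested genes, and 0.0486, 0.0493 and 0.0537 for Mbd4, Cxxc5 and Mbd2. It was 0.0700 for Mbd3 and 0.0909 for Cxxc1, where 12.9% and 23.0% of tested genes had a smaller SD. Ogt had an SD of 0.210, larger than that of 64.0% of tested genes, and its highest library was 1.34 times its lowest.

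The spread of Ogt followed library number. The split by number was chosen because earlier results of these data showed the libraries numbered 4 apart. Its p-values come from the counts that set the split, so they describe it and are no independent test. With genotype in the model, Ogt fell to 78.8% in the libraries numbered 4 relative to those numbered 2 and 3 (log2 −0.34, SE 0.07, 95% interval −0.50 to −0.19, edgeR adjusted p = 0.0126). Both genotypes showed the drop, with library 4 at 79.6% of the mean of libraries 2 and 3 in knockout and 78.1% in wild type. This contrast called 1 of the 7 members (14.3%) and 14.8% of all tested genes, so the number of members called was at the background. That background itself was 5.86% without knockout library 3 and 3.68% without wild-type library 3. The 6 other members had log2 differences from −0.11 to 0.11 in this contrast, with Cxxc1 lowest and Mbd3 highest (edgeR adjusted p = 0.233 and 0.197). Cxxc5 was also higher in both libraries numbered 4 than in all others (120 and 114 against 110 to 113 CPM), at a log2 difference of 0.07 (SE 0.05, edgeR adjusted p = 0.409). Such a lack of overlap was seen in 2 of 7 members (28.6%) and in 36.2% of tested genes.

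Tet2 also fell in the libraries numbered 4 (log2 −0.39, SE 0.07, edgeR adjusted p = 0.00851). Among the heat-shock genes, 5 of 6 rose there, with Dnajb1, a co-chaperone, at 199 to 208 CPM against 69.3 to 80.7 CPM in the other libraries. The part of the heat-shock and erythroid differences in the level of Ogt was not tested. The labels give the number 4 no meaning beyond that of a replicate. The call of Ogt in this contrast was lost without knockout library 3 (log2 −0.30, edgeR adjusted p = 0.0566) and without wild-type library 3 (log2 −0.31, edgeR adjusted p = 0.0738).

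Whether the genotype difference itself changed with library number was tested as an interaction. It was called for 0 of 7 members, with 0 at an unadjusted p under 0.05, where 1.19% of all tested genes were called and 16% had such a p (edgeR). The largest estimate was that of Cxxc1, at 0.16 (SE 0.10, edgeR adjusted p = 0.484). Knockout minus wild type was −0.14 for Cxxc1 over the libraries numbered 2 or 3, and 0.01 between both libraries numbered 4. For Ogt the interaction was 0.03 (95% interval −0.24 to 0.30). Number 4 has 1 library per genotype, so this test has little precision. A model with a term for the libraries numbered 4 called 4.4% of all genes between genotypes and 0 of the 7 members.

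**Figure D3:**
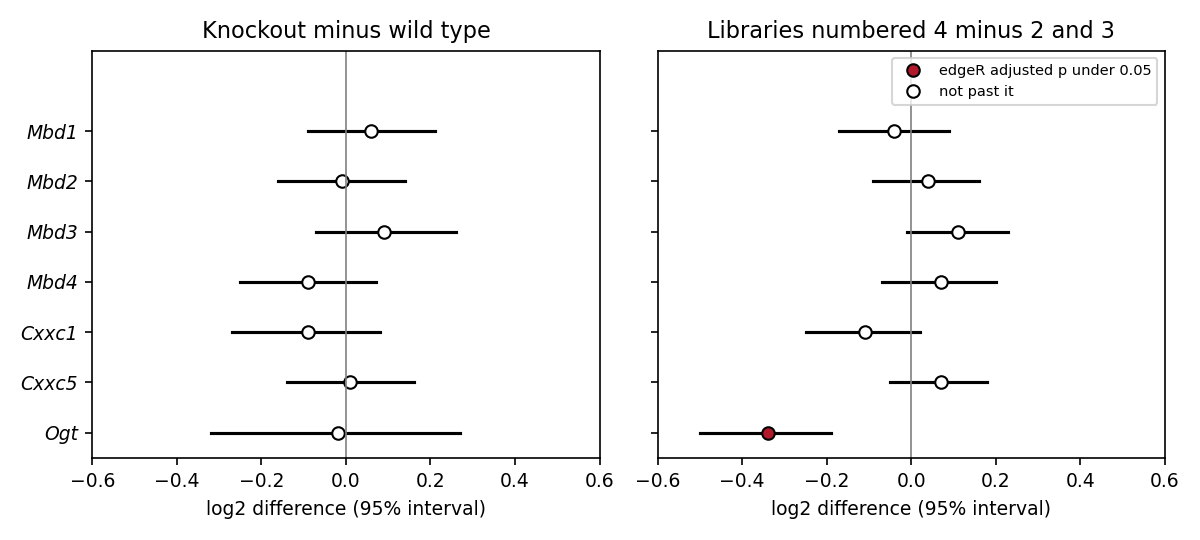
Log2 differences of the 7 genes with 95% intervals (horizontal axes) between genotypes (left) and between the libraries numbered 4 and those numbered 2 and 3 (right), filled where the edgeR adjusted p was under 0.05. All intervals on the left include 0, and on the right Ogt at −0.34 is the filled point.

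Partners and relatives of these proteins were described through lists of 56 genes in 6 groups, 53 of which were tested. All are termed partners here for short. The lists of methyl-CpG reader families and of CXXC genes hold genes chosen for a like domain or function, not as partners. Between genotypes edgeR, DESeq2 and limma-voom each called 0 of the 53, and 4 (7.55%) had an unadjusted p under 0.05 (edgeR), against 13.4% of all tested genes. Their median log2 difference was −0.01, as over all tested genes (−0.01). In 3 other fits some partners were called, each time a smaller share than of all genes. The term for the libraries numbered 4 gave 1 (1.89%, Rbbp7, higher) where 4.4% of all genes were called. Libraries 2 and 3 alone gave 11 (20.8%, with 4 higher and 7 lower) where 24% were called. Leaving out wild-type library 4 gave 2 (3.77%, Rbbp7 higher and Kmt2b lower) where 6.47% were called.

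Of the 13 NuRD subunits, the complex of MBD2 and MBD3, all 13 were tested and 10 had a positive log2 difference, with a median of 0.03. The histone-binding subunit Rbbp7 was at 130 ± 8.66 CPM in knockout against 106 ± 6.66 CPM in wild type (SD, n = 3 each; log2 0.29, SE 0.08, edgeR adjusted p = 0.196). Chd5, a remodeller best known from neurons, was near the limit of detection at 0.318 ± 0.228 and 0.684 ± 0.0988 CPM. The main remodelling ATPase, Chd4, was at 641 ± 36.7 and 596 ± 22.7 CPM (edgeR adjusted p = 0.585).

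A list of 8 other genes from families of methyl-CpG readers was tested in full. In it 1 gene had a positive log2 difference, at a list median of −0.08. The genes were listed by family, and not each of the proteins is known to bind methylated CpG. Zbtb38, a zinc finger reader, was at 57.9 ± 4.52 CPM in knockout against 69.2 ± 2.42 CPM in wild type (log2 −0.26, edgeR adjusted p = 0.250). Mbd6, listed for its methyl-CpG binding domain family and not as a reader, had a log2 difference of −0.16 (edgeR adjusted p = 0.606). Uhrf1, which reads hemimethylated CpG and recruits the maintenance methyltransferase, was low at 12.4 ± 1.34 and 11 ± 1.73 CPM. Of 9 other genes with a CXXC domain, 8 were tested (Cxxc4 was not), with a median of −0.06 and 3 positive. Kmt2b, a histone H3 lysine 4 methyltransferase, was at 248 ± 18.2 CPM in knockout against 293 ± 41.1 CPM in wild type (edgeR adjusted p = 0.383). Fbxl19, a CXXC protein with an F-box, had a log2 difference of −0.20 (edgeR adjusted p = 0.402).

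The 8 SET1 complex subunits, partners of CXXC1, were all tested and had a median log2 difference of −0.03. The catalytic subunits Setd1a and Setd1b both differed by −0.18 (edgeR adjusted p = 0.472 and 0.443). Of 6 genes of O-GlcNAc removal and of the hexosamine pathway that makes the donor sugar of OGT, 5 were tested and 2 were positive. Gfpt2 was at 0 counts in all 6 libraries, while its relative Gfpt1, the entry enzyme of the pathway, was at 59.8 ± 2.18 and 57.0 ± 1.17 CPM. Uap1, which makes the donor sugar, had a log2 difference of 0.14 (edgeR adjusted p = 0.453). Oga, the enzyme that removes the sugar (listed as Mgea5), was at 284 ± 10.1 CPM in knockout against 309 ± 4.34 CPM in wild type (log2 −0.12, edgeR adjusted p = 0.458). Per kilobase the ratio of Ogt to Oga was between 1.05 and 1.5 in the 6 libraries.

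Of 12 base excision repair genes, the pathway in which MBD4 acts, 11 were tested, 6 were positive and the median was 0.13. Apex1, the abasic site endonuclease, was at 9.96 ± 0.798 CPM in knockout against 8.21 ± 0.240 CPM in wild type (log2 0.28, edgeR adjusted p = 0.359). Tdg, the other glycosylase known to act on thymine opposite guanine, was at 5.76 ± 0.661 and 5.14 ± 1.20 CPM (edgeR adjusted p = 0.752). Parp1, which binds DNA breaks, was at 539 ± 24.9 and 493 ± 26.8 CPM (edgeR adjusted p = 0.493).

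The lists were also read by library number, where 16 of the 53 partners were called (30.2%, with 7 higher and 9 lower in the libraries numbered 4), against 14.8% of all tested genes. Both shares moved when a library was left out: without knockout library 3 they were 9.43% (5 partners) and 5.86%, without wild-type library 3 they were 7.55% (4) and 3.68%, and without wild-type library 4 they were 17% (9) and 10.2%. With all 6 libraries, calls went both ways in 4 of the 6 lists. In the list of methyl-CpG reader families Mbd6 fell by 0.30 on the log2 scale. Kaiso (Zbtb33) rose by 0.30 and Uhrf2 by 0.26. In the CXXC list Tet1, Kmt2b and Dnmt1 fell by 0.62, 0.25 and 0.22. Of the NuRD subunits the deacetylase Hdac2 rose by 0.25 and Gatad2b fell by 0.26, and of the repair genes the polymerase Polb rose by 0.47 and the ligase Lig3 fell by 0.28. In the SET1 list Wdr82 rose by 0.34 and Dpy30 by 0.37, while Hcfc1, a substrate that OGT cleaves, fell by 0.27 and Setd1a by 0.23. Oga differed by 0.02 (95% interval −0.10 to 0.15, edgeR adjusted p = 0.804), and whether it differed from Ogt in this contrast was not tested. Gnpnat1, an enzyme of the hexosamine pathway, rose by 0.44 (edgeR adjusted p = 0.0223).

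**Figure D4:**
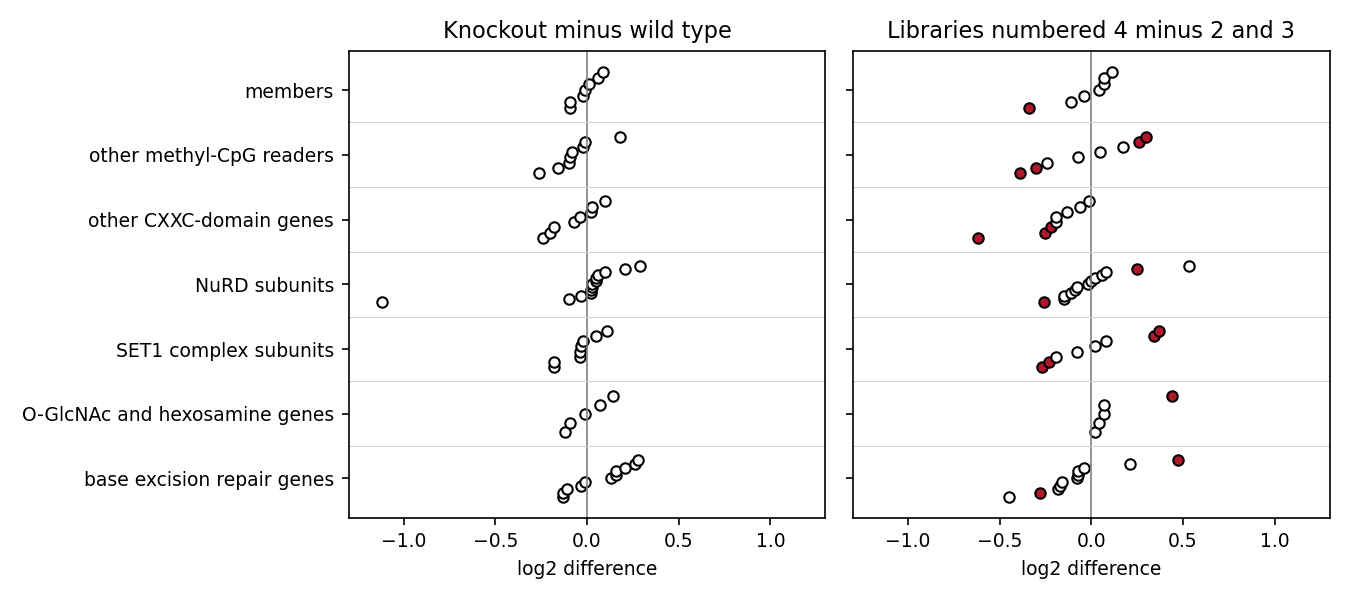
Log2 differences (horizontal axes) of the 7 members and the tested genes of 6 partner lists, between genotypes (left) and between libraries numbered 4 and 2 and 3 (right), with 1 point per gene, filled where the edgeR adjusted p was under 0.05. On the left 0 points are filled, and on the right 1 member and 16 partner genes are.

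The genes most like each member in pattern were taken as those with the smallest root mean square difference of centred log2 CPM over the 6 libraries, among 8119 genes with a mean of at least 10 CPM. For Ogt these were Fbxl18 (0.0317) and Slc9a8 (0.0340), which had log2 differences of −0.30 and −0.34 in the libraries numbered 4. For Cxxc1 they were Kansl3 (0.0106) and Aim2 (0.0140), and for Mbd3 Sod2 (0.00962) and Cnpy3 (0.0108). For the nearly flat genes the nearest were Zmat1 and Fbxo22 (Mbd1), Hipk3 and Dgcr2 (Mbd2), Mknk1 and Lats1 (Mbd4) and Ammecr1l and Entpd5 (Cxxc5), at 0.00908 to 0.0176. The median gene was 0.214 from Ogt and 0.122 to 0.146 from the other members. Because the libraries share a genotype or a number, likeness here describes 6 values and no more.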

How the data were processed

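RNA from naive B cells of mouse spleen was sequenced from strand-marking mRNA libraries, per the labels' protocols. The values are the authors' deposited counts, fragments per gene name over exons of GENCODE vM3 from featureCounts 1.5.1 run on read pairs, with no strand setting in the recorded command, per the file headers. Reads were aligned with STAR 2.3.0e to GRCm38.p3, per the submitters' processing notes. Exons of the 7 genes share no base with those of another gene of the table. The deposited summed exon length of each gene, an other kind of value in bases, set the per-kilobase scale. Count columns that match no sample used here (6) were left out.

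Libraries were grouped by the genotype in their labels. Genes with enough counts (filterByExpr, minimum count 10) were tested by edgeR 4.0.16 (R 4.3.3, TMM, robust quasi-likelihood F test, no covariate), with Benjamini-Hochberg adjustment over 13604 genes and a threshold of 0.05. SEs were derived from the F statistic and intervals are 95% intervals. The same test, with genotype in the model, was used for the libraries numbered 4 and for the interaction. DESeq2 1.42.0 and limma-voom (limma 3.58.1) were alternatives, beside other normalizations, filters, a replicate block and left-out libraries. On simulated counts of 13604 genes the genotype test recovered 71.6%, 92.5% and 100% of the genes given a 1.5-fold, 2-fold or 4-fold difference. Of its 200 calls 24 were false. The changed genes, 66 or 67 per fold, were drawn from those with a mean of at least 2 CPM. No shared shift of the libraries numbered 4 was simulated, so these rates may not hold for the real libraries.

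The members, lists and tests were chosen with earlier results of these data known. The rule named the members and Tet2, per list and contrast up to 4 called genes (else the 2 with the smallest p) and genes at 0 counts, and the 2 genes most alike each member. It was applied to the 6 partner lists; marker, heat-shock, X-linked and Y-linked lists are given mostly as sums. Uhrf1, Chd4, Gfpt1, Tdg, Cxxc4 and Xist were chosen after their values were seen. Not every gene that the rule takes is reported here. Nothing says that libraries came from separate mice, so p-values measure the spread between libraries, which may be technical.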

Additional observations from a re-analysis of the deposited data

How the results depend on the processing

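The count of 0 members called between genotypes was the same under all 18 alternatives (6 members without X and Y genes, which leaves out Ogt), with adjusted p of at least 0.0931 (Cxxc1, libraries 2 and 3 alone). Mbd1, Mbd3, Mbd4 and Cxxc1 kept their direction in all of them. Genes close to 0 turned: Cxxc5 was −0.04 with library size only, −0.01 with upper-quartile scaling and −0.02 with libraries 2 and 3, and Mbd2 was 0.00 without a filter on low counts. Leaving out 1 library each gave −0.03 to 0.03 for Cxxc5, −0.04 to 0.04 for Mbd2 and −0.13 to 0.08 for Ogt; the cause was not tested. The partner lists had 1 gene called with the term for the libraries numbered 4, 11 with libraries 2 and 3, and 0 to 2 with 1 library left out. By library number, 0 to 1 members and, in fits added after seeing the data, 4 to 16 partner genes were called with 1 library left out. Without division by length, 4 of 7 members kept their place in the order of levels.

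Deviations of same-numbered libraries correlated at 0.0857, 0.220 and 0.394 for numbers 2, 3 and 4. Between a library numbered 2 and one numbered 3 of the other genotype they correlated at 0.166 and 0.239. The labels do not say that equal numbers pair samples, so the main test used no pairing. A library numbered 4 and one of another number and genotype correlated at −0.345 to −0.191. Deviations were taken from the mean of the 3 libraries of a genotype, so they sum to 0 and these correlations depend on each other. They cannot decide whether numbers 2 and 3 pair samples. The negative values are no separate support for a number 4 shared between the genotypes. The replicate block called 0 members and 0 partner genes, with 85 calls over all genes against 55. Over all genes the count of calls was 350 by DESeq2, 262 without a filter, 36 with a mean of at least 1 CPM, 599 with the term for libraries numbered 4 and 3307 with libraries 2 and 3. It was 17, 26 and 146 without knockout library 2, 3 or 4, and 22, 21 and 900 without wild-type library 2, 3 or 4. Intervals rest on 3 libraries per genotype, and differences smaller than these intervals were not detectable.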
